A study of Mus musculus with 6 samples.

Results

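The 10 genes described here encode the proteins that coat, fuse and guard lipid droplets: the 3 CIDE genes (Cidea, Cideb and Cidec), the 5 perilipins (Plin1 to Plin5) and 2 regulators of the main droplet lipase (G0s2 and Abhd5). They were named by gene symbol, with earlier results of these data known, among the 54532 genes of the count table. All 10 were found there. Liver RNA came from 6 libraries of male littermate mice, 3 labelled wild type (WT replicates 1, 2 and 3, genotype control) and 3 labelled Trem2-deficient (KO replicates 4, 5 and 6), with the replicate numbers taken from the titles. Every mouse had been fed a high-fat diet, which fattens the liver, for 8 weeks from 8 weeks of age, so no library stands for a lean liver. The only comparison is between the genotype labels under that diet. The sources used here do not give how the Trem2 allele was made or which cells lack it. Separate mice for the libraries are not stated in the labels either, so the p-values speak of the spread between libraries, which may be technical. Because the samples are bulk liver, fewer cells of a type and less RNA per cell cannot be told apart.

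Hepatocytes store surplus fatty acids as triglyceride in droplets that form at the endoplasmic reticulum and carry a coat of perilipins. CIDE proteins sit where droplets touch: Cidea and Cidec move lipid from smaller to larger droplets, whereas Cideb, the form typical of hepatocytes, also serves the loading of lipid onto very-low-density lipoprotein. Release of the stored fat is begun by adipose triglyceride lipase (Pnpla2), which Abhd5 activates and G0s2 inhibits, and the coat decides how easily the lipase reaches its substrate. Transcription of several of these genes is driven by PPAR receptors, which bind DNA together with RXR.

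Levels are given as CPM, the counts scaled to a common library size after TMM adjustment. Differences are on the log2 scale, KO-labelled over WT-labelled, with the standard error (SE) of the fit. Totals were between 11591021 and 20399361 counts per library. Trem2, the targeted gene, had 7, 26 and 26 counts in WT replicates 1, 2 and 3 and 9, 6 and 5 counts in KO replicates 4, 5 and 6. The count of WT replicate 1 thus fell between those labelled KO, and all directions below are between libraries as labelled. Hepatocyte markers were abundant throughout, with a summed level of 77131 to 104803 CPM over 8 genes in WT-labelled and 80425 to 85404 CPM in KO-labelled libraries. Most of that sum was Alb, at 47789 to 67949 CPM over the libraries. Taken singly, 2 of the 8 were fitted higher and 6 lower. The groups of 1 of them, Apoa1, did not overlap and were lower (log2 −0.50), where 5.73% of all tested genes did so as lower. Mitochondrially encoded genes took 8.16%, 12.7% and 10.2% of counts in WT replicates 1, 2 and 3, and 28.0%, 9.08% and 19.8% in KO replicates 4, 5 and 6. Summed markers of macrophages (6 genes, 75.6 to 109 CPM in WT-labelled and 121 to 199 CPM in KO-labelled libraries), stellate cells (6 genes, 69.8 to 98.4 and 124 to 267 CPM) and endothelium (5 genes, 133 to 164 and 202 to 305 CPM) did not overlap between the labelled groups. Taken singly, 3 macrophage, 3 stellate and 1 endothelial marker (Eng) had groups that did not overlap, all higher. Over all tested genes, 8.12% did so as higher. The stellate markers Lrat, Reln and Rgs5 overlapped, with log2 differences of −0.03, 0.15 and 0.11, as did the endothelial Kdr with 0.02. None of the macrophage, stellate and endothelial markers is at 0 in all libraries, and their part in the results below was not tested. Biliary markers (4 genes) overlapped, at 6.12 to 10.9 and 7.41 to 9.25 CPM.

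KO replicate 5 stood apart by transcripts of other tissues. Of 12 markers of white adipocytes (Cfd left out after its values were seen, since it was detected in every library) and skeletal muscle, 12 had at least 10 counts in KO replicate 5 and 0 had so many in any of the other 5 libraries. The 8 white adipocyte markers summed to 5.66 to 60.0 CPM in WT-labelled and 38.5 to 73.5 CPM in KO-labelled libraries. In KO replicate 5, Cfd stood at 41.0 CPM of a sum of 61.8 CPM. Without Cfd, the other 7 summed to 0.389 to 0.448 CPM in the WT-labelled libraries and to 1.63, 20.8 and 0.721 CPM in KO replicates 4, 5 and 6. The 5 muscle markers summed to 0 to 0.256 CPM in the WT-labelled libraries and to 0.181, 65.2 and 0.0656 CPM in KO replicates 4, 5 and 6. Adiponectin (Adipoq) stood at 5.78 CPM and leptin (Lep) at 2.96 CPM there, against at most 0.181 CPM and 0 CPM elsewhere. The muscle genes Acta1 and Tnnt3 stood at 27.4 and 11.98 CPM there, against at most 0.192 and 0.0907 CPM elsewhere. Several of the genes described here are known from fat and muscle, so the log2 difference of each tested one is also given without that library.

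Cidec and Cidea were higher in every KO-labelled liver than in any WT-labelled one, but neither passed the threshold over all genes. Cidec (ENSMUSG00000030278, mm10 chromosome 6, 113424634 to 113435760), which lets droplets grow by lipid transfer, stood at 10.02, 23.9 and 8.69 CPM in WT replicates 1, 2 and 3 and at 119, 74.8 and 85.6 CPM in KO replicates 4, 5 and 6. The lowest KO-labelled library was well above the highest WT-labelled one. The means were 14.2 ± 8.39 and 93.1 ± 23.0 CPM (SD, n = 3 each), 6.57-fold apart (edgeR log2 2.72, SE 0.43, adjusted p = 0.276). Over all 13693 tested genes, 0.0146% passed the threshold (adjusted p of 0.05 by the quasi-likelihood test of edgeR), and 0 of the 10 genes were among them. In the same test, 3 of the 9 tested droplet genes (Cidea, Cidec and Plin4) had an unadjusted p under 0.05, all higher. Over all tested genes, 5.37% did so as higher and 3.21% as lower. Cidea passed the low-count filter through the KO-labelled libraries alone, so it could be counted only as higher. Cidec and Plin4 remain without it. The genes were chosen with earlier results of these data known, so such counts are descriptions. DESeq2 called 2 of the 10, Cidea and Cidec, where it called 1.14% of the 14783 genes it gave an adjusted p. The edgeR test without a low-count filter called the same 2, where it called 0.248% of 24643 genes. The limma-voom test with sample quality weights called 5 of the 9 droplet genes it tested (Cidea, Cidec and Plin4 higher, Cideb and Plin3 lower). It called 29.7% of all tested genes.

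Cidea (ENSMUSG00000024526, chromosome 18, 67343564 to 67367794), best known from brown adipocytes and from fatty liver, was close to the detection limit in WT-labelled libraries. It had 1, 5 and 7 counts in WT replicates 1, 2 and 3, that is 0.0622, 0.320 and 0.340 CPM. KO replicates 4, 5 and 6 had 43, 55 and 107 counts, or 3.90, 2.54 and 7.02 CPM. The exact 95% Poisson intervals, which cover counting error only, reached at most 0.746 CPM in any WT-labelled library and at least 1.92 CPM in any KO-labelled one. The fitted difference was 17.8-fold (log2 4.15, SE 0.65, edgeR adjusted p = 0.276). Cidea passed the low-count filter through the KO-labelled libraries alone, so it would not have been tested had they been as low. A noncoding gene on the other strand, B430212C06Rik, overlaps 540 bases of Cidea with 3 to 12 counts per library, and its reads cannot be told apart from those of Cidea unless strand was used in counting.

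The differences of Cidea and Cidec were as large without KO replicate 5, the library with the most fat and muscle transcripts. KO replicate 4, the library with the most Cidec, held some adipocyte transcripts too. Its 7 adipocyte markers other than Cfd summed to 1.63 CPM, with 8 counts of Nnat and 2 of Adipoq. KO replicate 6, the library with the most Cidea, had Adipoq and Lep at 0 CPM. Its 7 adipocyte markers other than Cfd nevertheless summed to 0.721 CPM, against at most 0.448 CPM in a WT-labelled library, with 5 counts of Adig (0.328 CPM) and 1 of Retn, both at 0 in every WT-labelled library and KO replicate 4. KO replicate 5, with the fat and muscle transcripts, had the least Cidea and the least Cidec of the KO-labelled group. Without KO replicate 5 the log2 difference was 4.44 (SE 0.62) for Cidea and 2.85 (SE 0.45) for Cidec. The adipocyte transcripts of KO replicates 4 and 6 stay in that fit, and their part in the differences was not tested. The 4 brown adipocyte markers summed to 1.12 to 3.20 CPM in WT-labelled and 2.56 to 4.35 CPM in KO-labelled libraries. Of these, Cox7a1 stood at 1.12 to 3.36 CPM over the libraries. Ucp1, the defining gene of brown adipocytes, was at 0 CPM in each KO-labelled library. Cox8b, however, had 39 counts (1.80 CPM) in KO replicate 5, against at most 5 counts (0.320 CPM) in any other library. A part of brown adipocyte transcripts in the Cidea level was not tested. In a fit that held the mitochondrial share (log2) as a covariate, chosen after seeing the data, the differences were 3.61 (SE 0.65) for Cidea and 2.32 (SE 0.37) for Cidec.

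**Figure D1:**
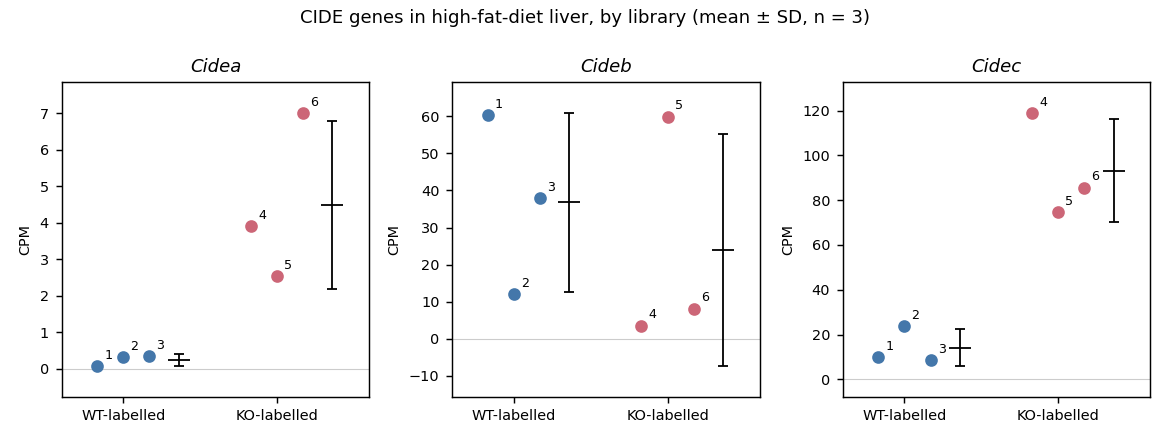
Level of Cidea, Cideb and Cidec in CPM (vertical axis, linear) in each library, labelled by replicate number, with the mean and SD of each labelled group of 3 beside the points. The KO-labelled points lie above all WT-labelled points for Cidea and Cidec, whereas Cideb ranges from 3.54 to 60.4 CPM with both groups mixed.

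Cideb, the CIDE gene of normal hepatocytes, varied more between libraries than between labels. The gene (ENSMUSG00000022219, chromosome 14, 55754050 to 55758458) stood at 60.4, 12.1 and 37.9 CPM in WT replicates 1, 2 and 3 and at 3.54, 59.9 and 8.13 CPM in KO replicates 4, 5 and 6. The highest KO-labelled library differed from the highest WT-labelled one by less than 1 CPM, and the other 2 KO-labelled libraries were below every WT-labelled library. The fitted log2 difference was −0.61 (SE 0.97, edgeR adjusted p = 0.837). Its ratio of highest to lowest library, 17.1, was exceeded by 0.608% of the 7233 tested genes with a mean of at least 10 CPM. Nop9, on the other strand, overlaps 1451 bases of Cideb and had 212 to 443 counts per library, against 39 to 1295 for Cideb.

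The 6 libraries stood for Cideb in exactly the reverse order of their mitochondrial share, from WT replicate 1 with the most Cideb and the smallest share to KO replicate 4 with the least Cideb and the largest. That order was shared by 339 of 13662 tested nuclear genes (2.48%), and 281 (2.06%) stood in the opposite order. None of the other 8 tested droplet genes showed either order. With the mitochondrial share as a covariate the sign turned, to a log2 difference of 0.61 (SE 0.28, edgeR adjusted p = 0.779). Without KO replicate 5 it was −2.65 (SE 0.71, edgeR adjusted p = 0.197). It was −0.06 without WT replicate 1, −1.03 without WT replicate 2, −0.11 without KO replicate 4 and −0.21 without KO replicate 6. Whether the mitochondrial share has a part in the level of Cideb was not tested beyond these fits.

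Measured per length, the CIDE family ranged from mostly Cideb to mostly Cidec between libraries. The summed FPKM of the 3 genes was 47.7, 21.1 and 30.2 in WT replicates 1, 2 and 3 and 69.0, 80.3 and 57.0 in KO replicates 4, 5 and 6. Cidec made up 11.7%, 60.5% and 15.4% of that sum in WT-labelled and 91.8%, 48.7% and 80.0% in KO-labelled libraries. The share was larger in WT replicate 2, a library low in Cideb, than in KO replicate 5, so the shares overlapped between the labelled groups although the Cidec levels did not. Cidec over Cideb was 0.133, 1.58 and 0.184 in WT-labelled libraries and 27.0, 1.00 and 8.44 in KO-labelled ones. The highest-to-lowest ratio was 17.1 for Cideb and 13.7 for Cidec, in CPM. Cidea remained the smallest of the 3 in every library but KO replicate 4 and KO replicate 6, where it exceeded Cideb, with 3.31 against 2.35 FPKM and 5.96 against 5.40 FPKM.

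**Figure D2:**
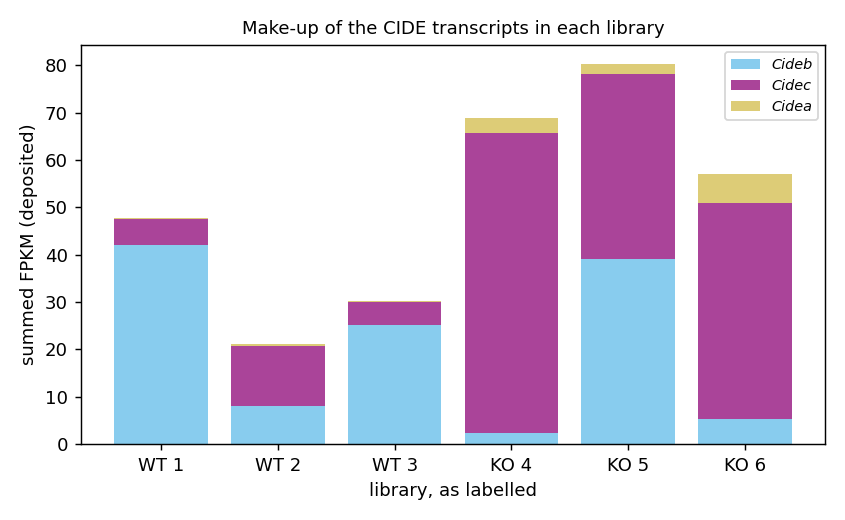
Summed deposited FPKM of the CIDE genes (vertical axis, linear from 0) in each library, split into Cideb, Cidec and Cidea. The 3 KO-labelled bars are taller than the 3 WT-labelled ones, and the Cideb part is small in WT replicate 2, KO replicate 4 and KO replicate 6.

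RefSeq gives Cidec 2 start sites, and both windows are shown because Cidec had the largest difference among the well-measured genes. Each window runs from 250 bases before to 50 bases after a start site on the minus strand of GRCm38.p6 and is printed 5′ to 3′ in the direction of transcription. The upstream one is chr6:113435711-113436010 and the downstream one chr6:113434715-113435014. The count table sums both starts, so their use cannot be told apart here.
Cidec, upstream start: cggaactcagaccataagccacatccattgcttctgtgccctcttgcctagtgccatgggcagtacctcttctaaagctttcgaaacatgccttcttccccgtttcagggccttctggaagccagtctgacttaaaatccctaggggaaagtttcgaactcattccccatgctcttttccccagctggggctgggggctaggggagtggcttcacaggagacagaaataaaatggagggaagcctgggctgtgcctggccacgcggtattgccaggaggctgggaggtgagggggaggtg
Cidec, downstream start: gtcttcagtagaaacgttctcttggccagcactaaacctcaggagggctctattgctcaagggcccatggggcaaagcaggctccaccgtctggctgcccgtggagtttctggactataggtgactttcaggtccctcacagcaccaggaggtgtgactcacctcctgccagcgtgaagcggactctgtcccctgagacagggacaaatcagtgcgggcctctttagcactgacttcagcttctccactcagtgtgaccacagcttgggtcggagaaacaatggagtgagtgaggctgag
Capitals mark 6 searched patterns, sought on both strands: the element DR1 bound by PPAR with RXR (AGGTCA repeated in the same direction with any 1 base between, up to 2 mismatches), the half-site AGGTCA by itself, the E-box CACGTG, the TATA box as TATAAA, the CCAAT box, and the variant CTATAAG. The last was added after reading the windows of Plin4 and Plin5. Neither Cidec window held any of them, so both stand in lower case. Of 32851 windows of the same length over all genes, 3.86% held the DR1 pattern, 16.3% AGGTCA, 7.15% CACGTG, 13.6% TATAAA, 37.4% CCAAT and 1.73% CTATAAG. These patterns overlap one another, since each DR1 match can hold a half-site. A match or its absence in such a window is a description of letters only. RefSeq windows were matched for 9 of the 10 genes.

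Among the perilipins, Plin4 was higher in every KO-labelled liver, and Plin2, Plin3 and Plin5 overlapped between the labelled groups. Plin4 (ENSMUSG00000002831, chromosome 17, 56100591 to 56109803), a coat protein of adipocytes and muscle that binds young droplets, stood at 6.66, 29.6 and 16.03 CPM in WT replicates 1, 2 and 3 and at 57.3, 30.2 and 83.6 CPM in KO replicates 4, 5 and 6. The groups did not overlap, but only just, since WT replicate 2 and KO replicate 5 were nearly level. The means were 17.4 ± 11.5 and 57.0 ± 26.7 CPM (SD, n = 3 each), 3.27-fold apart (edgeR log2 1.71, SE 0.56, adjusted p = 0.46). Of the 9 tested droplet genes, 3 (Cidea, Cidec and Plin4) had labelled groups that did not overlap, all higher. Over all tested genes, 8.12% did so as higher and 5.73% as lower. Cidea could be counted only as higher, since it passed the low-count filter through the KO-labelled libraries alone. KO replicate 5, with the fat and muscle transcripts, had the lowest Plin4 of its group, and without it the log2 difference was 2.01 (SE 0.54). With the mitochondrial share as a covariate it was 0.98 (SE 0.45), which is smaller by more than 1.5 times.

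Plin5 is the next gene to Plin4, 1797 bases away on the same strand, and its labelled groups overlapped. This perilipin of oxidative tissues, which tethers droplets to mitochondria (ENSMUSG00000011305, chromosome 17, 56111601 to 56117596), stood at 64.0, 30.3 and 64.7 CPM in WT replicates 1, 2 and 3 and at 40.9, 62.5 and 57.2 CPM in KO replicates 4, 5 and 6. All KO-labelled values lay inside the WT-labelled range. The fitted log2 difference was 0.02 (SE 0.33, edgeR adjusted p = 0.987), and its sign changed with the scaling and with the library left out (−0.27 to 0.17). Without KO replicate 5 it was −0.12. Plin4, Plin5 and Plin3 lie 7.75, 7.76 and 7.92 Mb from Trem2 on chromosome 17, so linkage to the Trem2 locus and the genotype label cannot be told apart for them.

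The windows of the neighbours Plin4 and Plin5 are shown because the genes are adjacent while only Plin4 had groups that did not overlap. They are chr17:56109733-56110032 for Plin4 and chr17:56117499-56117798 for the upstream start of Plin5, both on the minus strand of GRCm38.p6.
Plin4: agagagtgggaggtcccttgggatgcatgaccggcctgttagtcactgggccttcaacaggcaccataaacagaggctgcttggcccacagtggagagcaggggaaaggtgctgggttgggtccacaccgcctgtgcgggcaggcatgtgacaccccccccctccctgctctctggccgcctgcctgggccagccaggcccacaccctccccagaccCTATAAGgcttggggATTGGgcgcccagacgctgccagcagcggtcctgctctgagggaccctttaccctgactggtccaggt
Plin5, upstream start: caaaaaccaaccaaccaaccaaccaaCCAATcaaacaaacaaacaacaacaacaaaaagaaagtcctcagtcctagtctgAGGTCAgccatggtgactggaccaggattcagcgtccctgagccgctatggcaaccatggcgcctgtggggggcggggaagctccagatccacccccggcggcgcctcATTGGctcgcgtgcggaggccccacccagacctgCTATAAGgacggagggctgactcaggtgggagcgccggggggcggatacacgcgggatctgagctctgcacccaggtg
Both held CTATAAG, which begins 33 bases before the start of Plin4 and 28 bases before that of Plin5. That pattern was added to the search after these windows were read, so its presence in both was fixed in advance. Both also held CCAAT on at least 1 strand. Plin5 also held the half-site AGGTCA at −170 from its start, and Plin4 held none.

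Plin2 was the most abundant perilipin and did not differ significantly between the labels. It is the main droplet coat of hepatocytes, and its protein is known to be degraded when no droplet holds it (ENSMUSG00000028494, chromosome 4, 86648386 to 86670060). The level was 540, 198 and 514 CPM in WT replicates 1, 2 and 3 and 453, 618 and 461 CPM in KO replicates 4, 5 and 6. WT replicate 2 was the one low library, and the other 5 lay within 453 to 618 CPM. The fitted log2 difference was 0.29 (SE 0.39, edgeR adjusted p = 0.808), and −0.05 (SE 0.26) without WT replicate 2. It was 0.52 without WT replicate 1 and 0.13 without KO replicate 5. Plin2 held 69.4% to 79.8% of the summed perilipin FPKM in WT-labelled and 74.3% to 80.0% in KO-labelled libraries, a narrower range than the Cidec share of the CIDE sum.

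The window of Plin2, chr4:86670010-86670309 on the minus strand of GRCm38.p6, is shown as the one printed here that held the DR1 pattern.
Plin2: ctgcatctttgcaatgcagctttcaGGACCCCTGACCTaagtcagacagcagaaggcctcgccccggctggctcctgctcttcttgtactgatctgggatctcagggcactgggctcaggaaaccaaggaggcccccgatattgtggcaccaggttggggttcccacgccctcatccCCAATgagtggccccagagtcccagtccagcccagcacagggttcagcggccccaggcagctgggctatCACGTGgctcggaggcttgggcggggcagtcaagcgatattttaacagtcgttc
Its match, ggacccctgacct, is on the opposite strand with 2 mismatches and begins 225 bases before the start. The half-site AGGTCA lies within that match on the opposite strand, as tgacct, and begins 218 bases before the start. A CACGTG begins 4 bases before the start, and CCAAT 73 bases before it.

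Plin3, a perilipin that moves between cytosol and droplets in most cell types, had the low values in the libraries with a large mitochondrial share. The gene (ENSMUSG00000024197, chromosome 17, 56277476 to 56292873) stood at 26.5, 19.6 and 28.0 CPM in WT replicates 1, 2 and 3 and at 15.8, 29.4 and 13.6 CPM in KO replicates 4, 5 and 6. KO replicate 5 had the highest value and the other 2 KO-labelled libraries the lowest. The fitted log2 difference was −0.33 (SE 0.32, edgeR adjusted p = 0.742). It was −0.76 (SE 0.25, edgeR adjusted p = 0.215) without KO replicate 5 and 0.08 (SE 0.24) with the mitochondrial share as a covariate. Without KO replicate 6 it was −0.13, and without KO replicate 4 it was −0.20.

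Plin1, the coat of the adipocyte droplet, was found almost only in KO replicate 5. The gene (ENSMUSG00000030546, chromosome 7, 79720218 to 79732903) had 0, 0 and 1 counts in WT replicates 1, 2 and 3 and 5, 122 and 0 counts in KO replicates 4, 5 and 6. It did not pass the low-count filter and was not tested. KO replicate 5, at 5.64 CPM (95% exact Poisson interval 4.69 to 6.74), is the library with the adipocyte and muscle transcripts. By the same interval, a count of 0 allows up to 0.230, 0.236 and 0.242 CPM in WT replicate 1, WT replicate 2 and KO replicate 6. No fold difference is given.

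**Figure D3:**
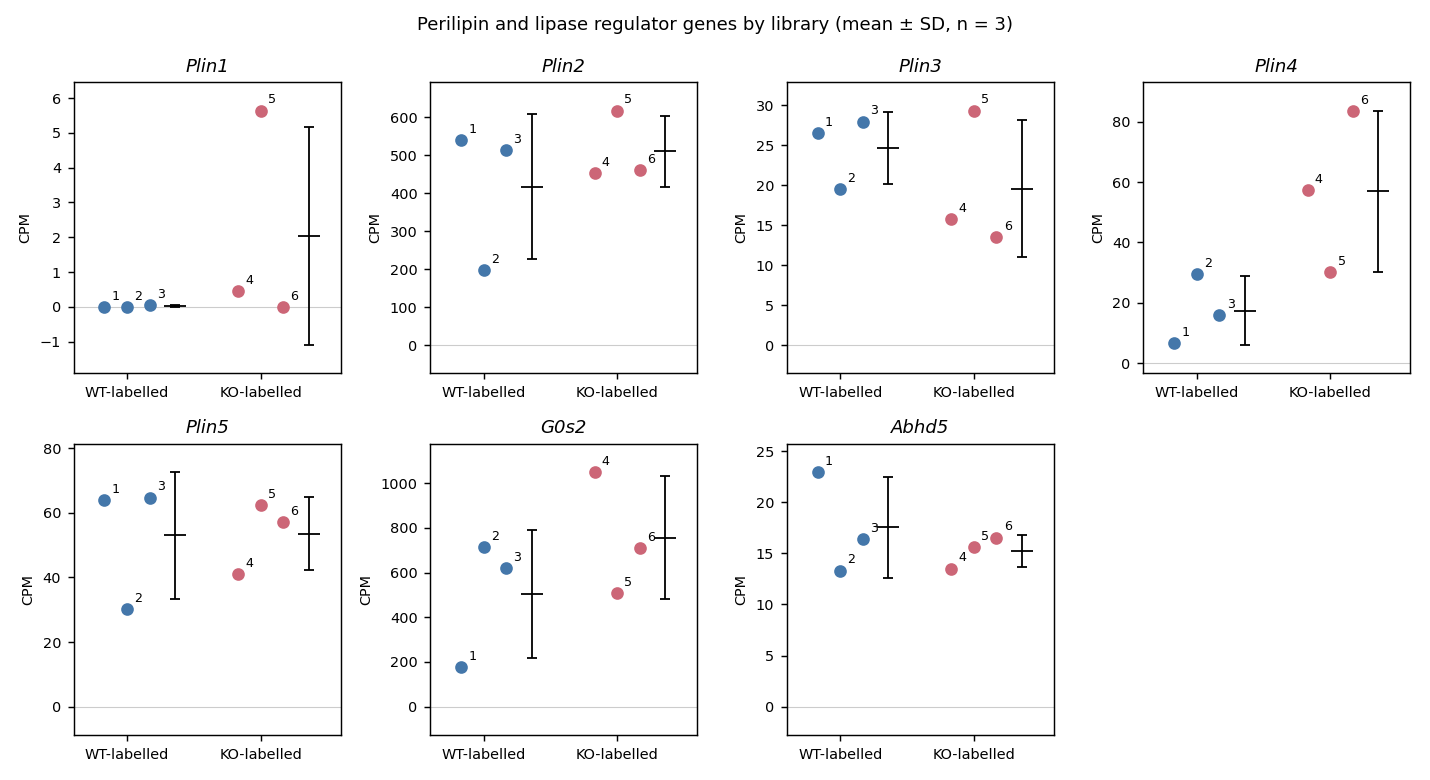
Level of the 5 perilipins and of G0s2 and Abhd5 in CPM (vertical axes, linear) in each library, labelled by replicate number, with the mean and SD of each labelled group of 3. Plin4 is the perilipin whose groups do not overlap among those tested, and Plin1 is above 1 CPM only in KO replicate 5.

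**Figure D4:**
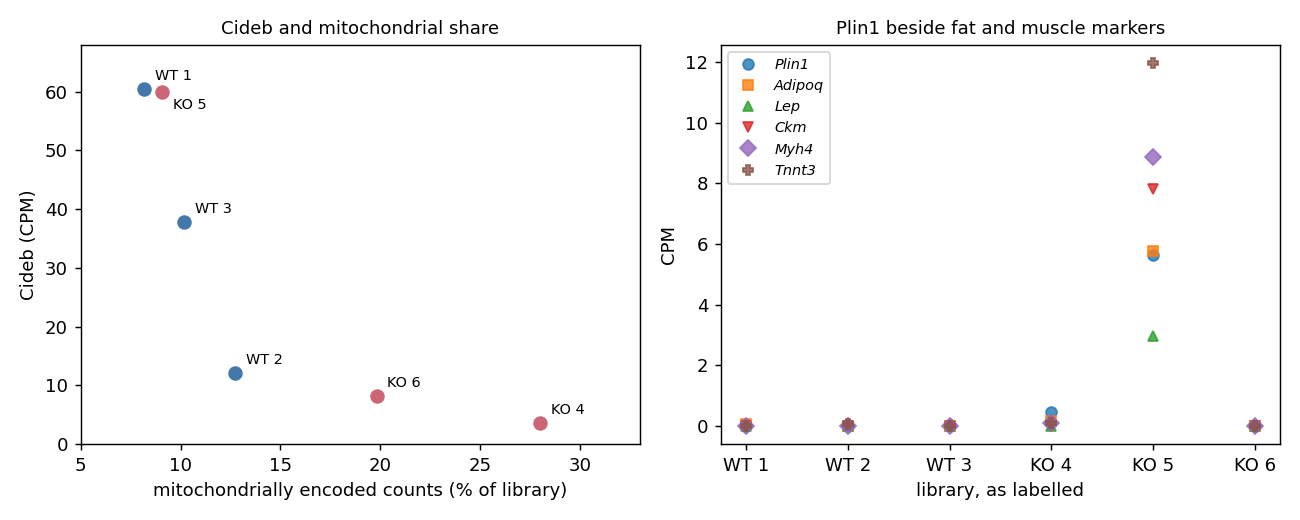
Left, Cideb in CPM against the share of mitochondrially encoded counts in percent, 1 point per library. Right, Plin1 beside the white adipocyte markers Adipoq and Lep and the muscle markers Ckm, Myh4 and Tnnt3 in CPM by library. Cideb is lower in each library with a larger mitochondrial share, and Plin1 stands at 5.64 CPM in KO replicate 5 together with all 5 markers.

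The 2 lipase regulators overlapped between the labelled groups. G0s2 (ENSMUSG00000009633, chromosome 1, 193272161 to 193273217), the inhibitor of adipose triglyceride lipase, stood at 178, 715 and 619 CPM in WT replicates 1, 2 and 3 and at 1050, 508 and 709 CPM in KO replicates 4, 5 and 6. WT replicate 1 was low by itself, and the other 5 libraries were mixed. The fitted log2 difference was 0.58 (SE 0.51, edgeR adjusted p = 0.722), and −0.02 (SE 0.45) with the mitochondrial share as a covariate. It was 0.18 without WT replicate 1, 0.27 without KO replicate 4, 0.80 without KO replicate 5 and 0.92 without WT replicate 2. G0s2 lies wholly inside Lamb3 on the opposite strand, with 96 to 670 counts per library for Lamb3 against 2868 to 12755 for G0s2. Abhd5 (ENSMUSG00000032540, chromosome 9, 122351608 to 122381524), the activator of the lipase, stood at 23.0, 13.3 and 16.4 CPM in WT-labelled and 13.5, 15.6 and 16.5 CPM in KO-labelled libraries, replicates in order. It had the smallest spread of the 10 genes, with a highest-to-lowest ratio of 1.73. Its log2 difference of −0.20 (SE 0.25, edgeR adjusted p = 0.791) ranged from −0.37 without WT replicate 2 to 0.04 without WT replicate 1. Without KO replicate 5 that difference was −0.23. The lipase itself, Pnpla2, had a log2 difference of 0.17 (SE 0.30). G0s2 over Pnpla2, as FPKM, was 5.68, 34.1 and 27.6 in WT-labelled and 53.3, 19.8 and 18.3 in KO-labelled libraries, again without separating the labels.

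**Figure D5:**
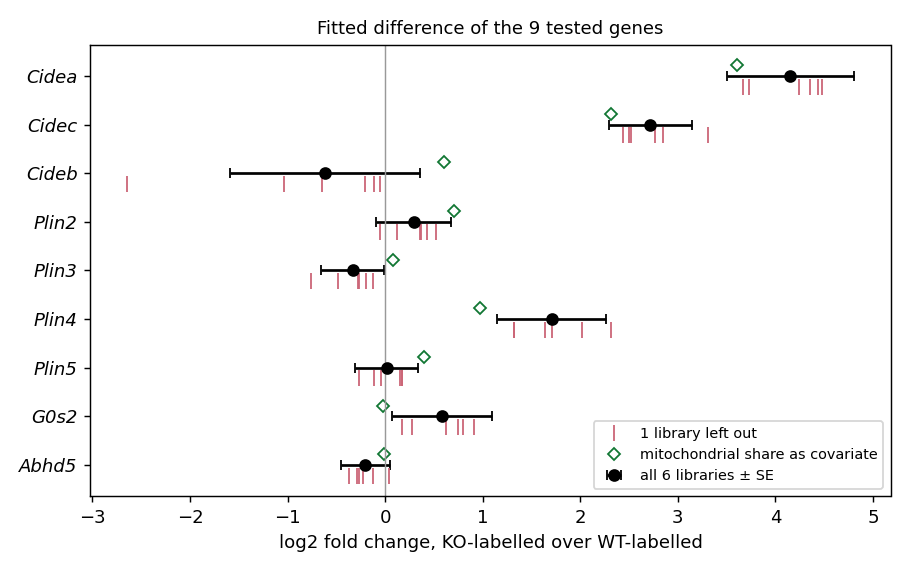
Fitted log2 fold change of KO-labelled over WT-labelled libraries for the 9 tested genes (black points with SE), with the 6 fits that leave out 1 library (ticks) and the fit with the mitochondrial share as a covariate (diamonds). Cidea, Cidec and Plin4 stay above 0 in all of these fits, while Cideb spans −2.65 to 0.61.

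By level per length, the order of the group means differed between the labels mainly through Cidec. In WT-labelled libraries the deposited FPKM averaged 578 ± 321 for G0s2, 120 ± 56.1 for Plin2, 25.6 ± 9.74 for Plin5, 25.1 ± 16.99 for Cideb, 7.67 ± 4.43 for Cidec, 6.57 ± 1.25 for Plin3, 3.01 ± 1.96 for Plin4, 2.98 ± 0.916 for Abhd5 and 0.206 ± 0.131 for Cidea (SD, n = 3). Within that order the ranges of Plin5 and Cideb, Cideb and Cidec, Cidec and Plin3, and Plin4 and Abhd5 overlapped. In WT replicate 2 Cidec was above Cideb, at 12.8 against 8.06 FPKM. In KO-labelled libraries G0s2 (854 ± 315) and Plin2 (143 ± 24.4) again led. There Cidec (49.3 ± 12.5) came next, before Plin5 (25.2 ± 5.13), Cideb (15.6 ± 20.4), Plin4 (9.73 ± 4.62), Plin3 (5.06 ± 2.15), Cidea (3.80 ± 1.97) and Abhd5 (2.51 ± 0.254). Below Cidec, the ranges of neighbours in that order overlapped. Plin1 was listed at 0, 0 and 0.0104 FPKM in WT-labelled and 0.0963, 1.18 and 0 FPKM in KO-labelled libraries.

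Other genes of droplet biology were described from 4 lists, against a median log2 difference of −0.01 and 49.1% fitted higher over all 13693 genes. None of their genes passed an adjusted p of 0.05, and the share that passed over all genes was 0.0146%. Of 10 enzymes and regulators of lipolysis, 7 were fitted higher and 3 lower (median 0.28). Those with the smallest p were Abhd6 and Mgll, both monoacylglycerol lipases, with log2 differences of 0.72 (SE 0.26) and 0.50 (SE 0.23), and Hilpda, another inhibitor of the same lipase as G0s2, with 0.76 (SE 0.42). Of 20 genes of droplet formation and surface, 9 were fitted higher and 11 lower (median −0.22, and 0.01 without WT replicate 1). Fitm1, a membrane protein that promotes droplet formation, had a log2 difference of 0.96 (SE 0.29), Bscl2, the droplet assembly protein seipin, of 0.56 (SE 0.20), and Vps13c, a lipid transfer protein, of −0.90 (SE 0.38). Their edgeR adjusted p ranged from 0.416 to 0.571. Pcyt1a, which makes the phosphatidylcholine precursor that covers growing droplets, stood at 38.1, 7.42 and 26.9 CPM in WT-labelled and 5.62, 38.0 and 6.62 CPM in KO-labelled libraries, in the same reverse order to the mitochondrial share as Cideb.

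Most listed target genes of PPAR receptors outside the 10 were fitted higher, and the split of the transcription regulators changed with the library left out. Of 20 such targets, 17 were fitted higher and 3 lower (median 0.47), 7 of them at an unadjusted p under 0.05 as higher, where 5.37% of all tested genes were. This list too was drawn up with earlier results of these data known, so its counts are descriptions. The split was 12 higher and 8 lower without KO replicate 6, and 18 and 2 without KO replicate 5. It was 14 and 6 without WT replicate 2, and 20 and 0 without WT replicate 1. Mogat1, an acyltransferase of triglyceride synthesis, stood at 0.809, 3.26 and 0.826 CPM in WT replicates 1, 2 and 3 and at 10.2, 8.83 and 12.5 CPM in KO replicates 4, 5 and 6 (log2 2.69, SE 0.56, edgeR adjusted p = 0.365). Its groups did not overlap, and as with Cidec the WT-labelled library with the most was replicate 2. The fatty acid transporter Cd36 had a log2 difference of 1.67 (SE 0.29), and Pex11a, a peroxisome division factor, of 1.09 (SE 0.25). Of 13 transcription regulators, 2 were fitted higher and 11 lower (median −0.09, and 0.00 without WT replicate 1). The split was 7 higher and 6 lower without WT replicate 1, 6 and 7 without KO replicate 5, and 5 and 8 without WT replicate 2. With any of the other 3 libraries left out it was 3 and 10. Pparg stood at 8.28, 9.46 and 7.04 CPM in WT-labelled and 9.80, 13.0 and 10.6 CPM in KO-labelled libraries (log2 0.43, SE 0.23, edgeR adjusted p = 0.638). Its groups did not overlap, but the nearest libraries differed by little. Cebpa, a hepatocyte and adipocyte transcription factor, and Rxra, the partner of PPAR, had log2 differences of −0.34 (SE 0.24) and −0.34 (SE 0.26), and Ppara had 0.00 (SE 0.18).

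Genes with the most similar pattern over the 6 libraries were sought among 11525 protein-coding genes with a mean of at least 1 CPM, by Pearson correlation of log2 (CPM + 1). The 6 points share their libraries' scaling, and the 2 labelled groups alone can give a high value, so these correlations are descriptions. For Cidec they were Wfdc2 (0.993), Rgs19 (0.990), Unc119 (0.989), Fam131c (0.988) and Limk1 (0.987), all fitted higher, with log2 differences of 1.40 to 1.93. Wfdc2 stood at 4.17, 7.48 and 3.59 CPM in WT-labelled and 22.9, 14.3 and 20.7 CPM in KO-labelled libraries, with the same order of libraries as Cidec. For Plin2 they were Tnfrsf21 (0.986), Ccdc124 (0.982), Tbc1d12 (0.981), Dnajc2 (0.979) and Psmc2 (0.976), which all had their lowest value in WT replicate 2. For Cideb they were Bloc1s6 (0.999), Kpna2 (0.997), Bri3 (0.996), Cyb5d1 (0.996) and Aimp2 (0.996). Kpna2, an importin of nuclear transport, stood at 36.1, 13.9 and 27.8 CPM in WT-labelled and 6.80, 31.5 and 10.8 CPM in KO-labelled libraries.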

How the data were processed

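Trizol RNA of frozen liver was made into TruSeq libraries, per the labels' protocols. The tools HISAT2 2.0.5, featureCounts 1.5.0-p3 and DESeq2 1.16.1 and the build mm10 stand in the submitters' processing notes, without roles; annotation release and use of strand are not given in the sources used here. Raw whole-number counts for 54532 genes were deposited by the authors. The authors' deposited FPKM table scales the same counts by gene length and by 1 size per library, which is not the column total.

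Groups came from the sample titles, whose replicate numbers are not shared between groups. The test was edgeR's quasi-likelihood F test (edgeR 4.0.16, R 4.3.3, TMM, filterByExpr leaving 13693 genes, Benjamini-Hochberg adjustment over all genes at 0.05), and each SE is the fitted log2 difference divided by the root of F. Depth was 11591021 to 20399361 counts per library, and Poisson intervals and limits from 0 counts cover counting error only. On simulated counts for the same 13693 genes, the test recovered, of 50 genes per size, 3 (changed 2-fold), 25 (4-fold), 40 (8-fold) and 43 (16-fold), with 9 false among 120 calls. Each simulated gene was drawn independently of the others, without differences shared by many genes of a library, such as those in mitochondrial share. Recovery in the real libraries may therefore be lower. In them Cidea and Cidec, fitted 17.8-fold and 6.57-fold apart, were not called. No 2 libraries agreed within sampling noise (chi-square per degree of freedom at least 42.3).

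The genes and lists were chosen with earlier results of these data known. Genes named outside the 10 are Trem2, the 3 with the smallest p of each of 4 lists, and the 5 most correlated with Cidec, Plin2 and Cideb; marker genes, Pcyt1a, Ppara, Pnpla2, Ldah, Cav1, Cavin1 and overlapping genes were named after their values were seen. Alternatives were DESeq2 1.42.0, limma 3.58.1 (voom with and without quality weights, and log2 FPKM with pseudocounts of 1 and 0.1), other scalings and filters, each library left out, and, added after seeing the data, the mitochondrial share as a covariate. Promoter windows are RefSeq's on GRCm38.p6; Cidea was not analysed there.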

Additional observations from a re-analysis of the deposited data

How the results depend on the processing

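The 2 genes called over all genes became 169 of 14783 with DESeq2 (1.14%), 1 with limma-voom, 4063 of 13693 with voom quality weights (29.7%), 61 of 24643 without a low-count filter (0.248%), 0 and 1 from FPKM with pseudocounts of 1 and 0.1, 1 with the mitochondrial share as a covariate, and 0 to 1 with a library left out (edgeR unadjusted p under 0.05: 1175 genes). Of the droplet genes, 0 were called in edgeR, 2 with DESeq2 (Cidea, Cidec), 2 without a low-count filter (the same 2 genes) and 5 with voom quality weights (Cidea, Cidec and Plin4 higher, Cideb at −2.13 and Plin3 at −0.86 lower), and 0 with any library left out. Cidea, Cidec and Plin4 were fitted higher in all 17 alternatives each, at 1.92 to 4.48, 2.32 to 3.31 and 0.98 to 2.32, the edgeR adjusted p with a library left out being 0.167 to 0.835, 0.068 to 0.835 and 0.197 to 1.00.

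The sign turned in these fits. Cideb was 0.61, Plin3 0.078 and G0s2 −0.023 with the mitochondrial share as a covariate. Plin2 was −0.049 with voom quality weights and ranged from −0.052 (without WT replicate 2) to 0.52 with a library left out, and Abhd5 from −0.37 to 0.036 (without WT replicate 1). Plin5 was −0.027 with DESeq2, −0.21 with voom quality weights, −0.012 with RLE size factors, −0.0016 with TMM without mitochondrial genes, −0.0064 without a low-count filter, and −0.27 to 0.17 with a library left out. With a library left out, the list medians ranged from 0.23 to 0.39 (lipolysis), −0.27 to 0.011 (droplet formation), −0.18 to 0.0020 (regulators) and 0.30 to 0.69 (PPAR targets), and the turned signs came without WT replicate 1. The KO minus WT difference of the Cidec share of CIDE FPKM, 44.3 percentage points, ranged from 35.2 to 60.0, and that of the Plin4 share of perilipin FPKM, 2.75 points, from 1.44 to 4.51. The cause of these changes was not tested. No paired analysis was possible because the groups share no replicate number. Depth limits Cidea and Plin1, with at most 7 and 1 counts in a WT-labelled library.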

Other observations

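Beyond the droplet genes, of 13662 tested nuclear genes 339 ordered the 6 libraries exactly in reverse of the mitochondrial share and 281 in its order. Ldah, a hydrolase of lipid droplets, was in reverse order as well, at 45.5, 37.9 and 40.5 CPM in WT replicates 1, 2 and 3 and 27.8, 44.5 and 34.2 CPM in KO replicates 4, 5 and 6. Cps1, the first enzyme of the urea cycle, stood at 2195, 573 and 1406 CPM in WT-labelled and 198, 723 and 362 CPM in KO-labelled libraries, with overlapping groups (log2 −1.70, SE 0.60, edgeR adjusted p = 0.513). The caveolar genes Cav1 and Cavin1, abundant in adipocytes, were highest in KO replicate 5, at 16.8 and 27.5 CPM, against at most 6.26 and 9.80 CPM in any other library.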
